A study of Mus musculus with 4 samples.

Results

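Urothelium-like cells of the embryonic urogenital sinus were examined before culture and after 1 day of explant culture. They were 278 of the 1887 explant cells given day 0 or day 1, out of 7474 cells in the explant library and 19148 cells in the series. A cell had to hold more than 1000 genes, less than 7.5% mitochondrial UMIs (unique molecular identifiers, 1 per captured transcript), at least 5 UMIs of Upk1a, Upk2 and Upk3a together, and fewer than 2 UMIs of Pax2. The day came from lipid-tagged MULTI-seq barcodes: each count was divided by the median of its barcode, and the top ratio had to be at least 3 and at least 2 times the next. The rule gave 151 cells on day 0, which was 16.7% of the 902 cells of that day (14.4 to 19.3), and 127 cells on day 1, which was 12.9% of 985 (10.9 to 15.1). These and all later intervals in parentheses are exact 95% intervals that cover counting error only, and UMIs of 1 cell share its capture and amplification.

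The study followed how the developing prostate epithelium takes its lineages in culture. Urogenital sinuses of ICR (CD-1) mice were taken at E15.5. Day 0 cells came from uncultured sinuses, and day 1 cells from sinuses cultured for 1 day on a filter with insulin, transferrin, selenite and 10 µM dihydrotestosterone. Live EPCAM+ cells of dissected middle regions were sorted and sequenced with the 10x 3′ kit in 1 library, in which each day was 1 pool of explants. With 1 pool a day no comparison has a replicate, so values are described without a test, and litter, pool and day cannot be told apart.

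Uroplakins are membrane proteins that cover the surface of the bladder lining, the urothelium. The tetraspanins Upk1a and Upk1b pair with Upk2 and Upk3a or Upk3b, and the pairs pack into plaques that umbrella cells, the outermost layer, deliver to their surface in vesicles. Beneath the umbrella cells lie intermediate cells and p63-positive basal cells, and in the embryo the same endodermal tube gives rise to the bladder, the urethra and the prostate.

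The assignment to a day rests on oligonucleotides carrying an 8-base barcode, so those of both days are shown. Each has 59 bases, with the barcode at bases 22 to 29 in capitals, and the barcodes differ at 5 of 8 positions.
Day 0: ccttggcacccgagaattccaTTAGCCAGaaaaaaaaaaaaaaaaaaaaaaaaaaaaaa
Day 1: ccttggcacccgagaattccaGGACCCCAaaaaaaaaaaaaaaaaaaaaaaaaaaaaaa

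The 3 genes of the rule lie apart in the genome (GRCm38, GENCODE vM21). Upk1a is at chr7:30603092-30612847 on the minus strand, Upk2 at chr9:44452715-44454976 on the minus strand and Upk3a at chr15:85017141-85022547 on the plus strand. The sequences next to the starts of Upk1a and Upk3a are shown because the levels of these 2 genes had unlike courses over the days. RefSeq windows of the same build held 4 of 6 uroplakins, Upk2 and Upk1b not among them, and in both sequences capitals mark motif matches on either strand.
Upk1a (chr7:30612848-30612984, minus strand): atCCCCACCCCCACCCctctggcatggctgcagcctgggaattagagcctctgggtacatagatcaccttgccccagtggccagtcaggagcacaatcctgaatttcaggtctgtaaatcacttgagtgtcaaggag
Upk3a (chr15:85016891-85017140, plus strand): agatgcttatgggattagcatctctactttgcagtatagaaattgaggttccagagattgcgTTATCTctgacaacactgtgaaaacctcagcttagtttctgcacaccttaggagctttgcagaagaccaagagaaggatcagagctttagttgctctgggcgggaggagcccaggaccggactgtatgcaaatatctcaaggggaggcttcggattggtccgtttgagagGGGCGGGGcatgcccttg
The RefSeq start of Upk1a lies inside the GENCODE gene, so only bases outside the gene are printed. The motif of KLF factors, CCNCNCCC, had 3 overlapping matches in the Upk1a window and 1 in that of Upk3a, and 45.9% of 32851 promoter windows of 250 bases held it. The GATA motif AGATAA had 1 match, in Upk3a, and stood in 9.99% of windows. TATAAA (12.4% of windows), the grainyhead motif AACNNGTT (3.64%), the forkhead motif TGTTTA (12%) and the direct repeat of PPAR and RXR factors (0.0335%) matched neither window.

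The cells passing the rule were much deeper than the rest, and this touches every level below. The median was 33721 UMIs and 5940 genes per cell on day 0 and 26132 UMIs and 5087 genes on day 1. Other epithelial cells, which had fewer than 5 uroplakin UMIs, fewer than 2 of Pax2, at least 1 of Epcam and fewer than 10 of Col1a1 and Col3a1 together, numbered 666 and 763, with medians of 17294 and 16515 UMIs. A limit in UMIs per cell is passed more easily by a deep cell. Cells over 60000 UMIs were 39 of the 151 urothelium-like cells on day 0 (25.8%) and 24 of 127 on day 1 (18.9%), against 2.40% and 1.70% of other epithelial cells. They held 51.8% and 45.6% of all UMIs of the urothelium-like cells. In these deep cells the top barcode ratio was a median of 120 and 100 times the next, against 53.4 and 34.3 times over all urothelium-like cells, and a doublet of 2 cells of 1 day would not be seen this way. The 6% of library cells with the highest Scrublet doublet scores included 7 and 12 urothelium-like cells (4.64% and 9.45%) and 52 and 65 other epithelial cells (7.81% and 8.52%). Levels are given as CPM, the UMIs of a gene per 1000000 UMIs summed over the cells of a group, and the value without cells over 60000 UMIs is added where it changes the picture. The part of depth or doublets in the results was not tested.

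The uroplakin sum that chose the cells spanned a wide range. It ran from 5 to 334 UMIs with a median of 9 on day 0, and up to 377 with a median of 15 on day 1. Per 10000 UMIs of the cell the medians were 2.97 and 5.54. Just outside the limit, with a sum of 4, were 21 cells on day 0 and 15 on day 1, and just inside it, with a sum of 5, were 24 and 10, with cells on both sides of the limit on each day. Sums of 25 or more were found in 24 cells on day 0 and 37 on day 1.

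**Figure D1:**
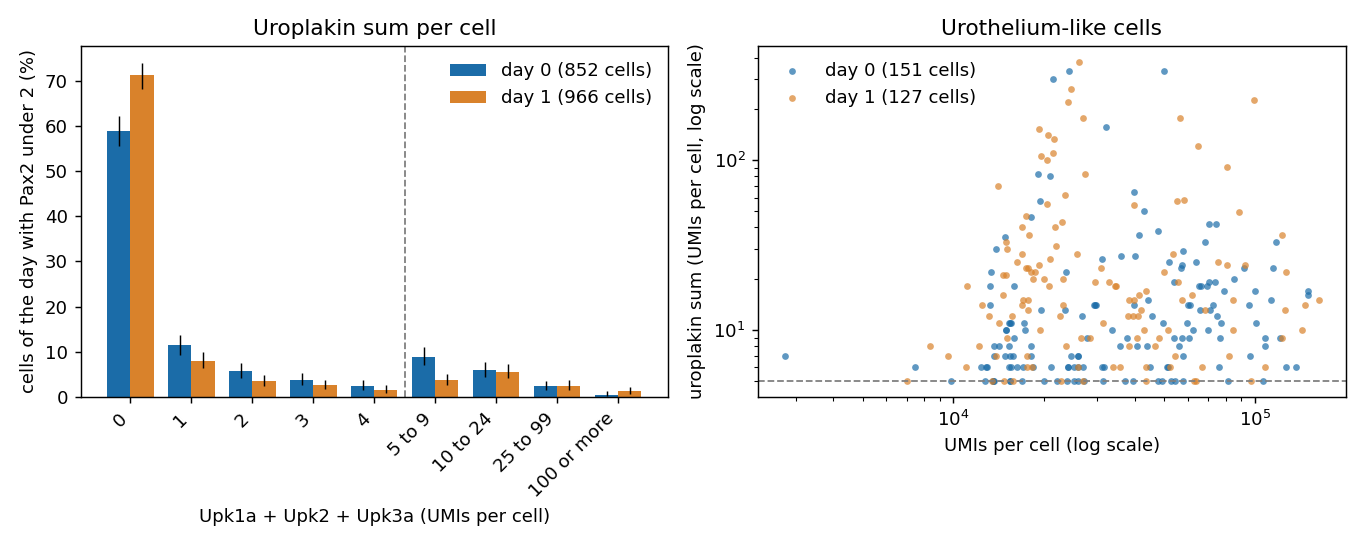
Left, share of the cells of each day with Pax2 under 2 (%, bars with exact 95% intervals) by uroplakin sum per cell in UMIs, with the limit of 5 as a dashed line. Right, uroplakin sum against UMIs per cell, both on log axes, 1 point per urothelium-like cell: the shares have no gap at the limit, and the highest sums are 334 UMIs on day 0 and 377 on day 1.

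The 3 uroplakins of the rule did not share 1 course from day 0 to day 1. Upk3a stood at 229 CPM on day 0 (218 to 241) and 649 CPM on day 1 (627 to 671), a ratio of 2.83 (2.66 to 3.01). Upk1a was level, with 184 CPM (173 to 194) and 190 CPM (179 to 203). Upk2 was 64.5 CPM on day 0 (58.5 to 70.9) and 45.7 CPM on day 1 (40.0 to 52.0). The day 1 level of Upk3a thus lay above that of day 0, that of Upk2 below it, and the intervals of Upk1a overlapped. Cells chosen by the same limits at days 3 and 6, which numbered 93 and 112, had 1710 and 1970 CPM of Upk3a, 190 and 71.0 CPM of Upk1a, and 86.7 and 63.9 CPM of Upk2. The summed UMIs over all cells of a day, which the rule does not select, give the same directions for Upk3a and Upk2 and a lower day 1 level for Upk1a. Over all cells Upk3a was 71.4 CPM on day 0 (68.0 to 75) and 158 CPM on day 1 (153 to 164), Upk1a was 63.8 CPM (60.5 to 67.1) and 51.4 CPM (48.4 to 54.5), and Upk2 was 25.7 CPM (23.6 to 27.8) and 12.5 CPM (11.1 to 14.1). Urothelium-like cells held 94.9% and 96.6% of the Upk3a UMIs of the days, 85.2% and 87.3% of those of Upk1a, and 74.4% and 85.9% of those of Upk2.

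Single cells mixed the 3 genes unevenly. The sum of these genes chose the cells, so it shapes the shares below. The shares were not set to equal depth, and the median was 33721 UMIs on day 0 and 26132 on day 1. Upk1a was detected in 92.7% of the urothelium-like cells on day 0 (87.3 to 96.3), Upk2 in 80.1% (72.9 to 86.2) and Upk3a in 66.9% (58.8 to 74.3). On day 1 Upk1a was detected in 77.2% (68.9 to 84.1), Upk2 in 59.1% (49.98 to 67.7) and Upk3a in 75.6% (67.2 to 82.8). All 3 were found in 74 cells on day 0 (49.0%) and 45 on day 1 (35.4%), and only 1 of them in 14 and 30 cells. Upk3a was concentrated in few cells: the 10 highest held 68.9% of its UMIs on day 0 and 51.9% on day 1, against 31.0% and 28.3% for Upk1a. Without cells over 60000 UMIs the levels of Upk3a were 406 and 996 CPM.

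Upk1b, a uroplakin outside the rule, was detected in 96.0% of urothelium-like cells on day 0 and 96.9% on day 1, at 245 CPM (234 to 257) and 215 CPM (202 to 228), and the 10 highest cells held 26.0% and 22.3% of its UMIs. Other epithelial cells had 76.4 and 61.0 CPM, so the level was 3.21 (2.97 to 3.47) and 3.52 (3.22 to 3.85) times higher in urothelium-like cells. Without cells over 60000 UMIs the level of Upk1b was 371 and 299 CPM. Upk3b, the partner of Upk1b in other epithelia, was at 10.6 and 12.2 CPM, from 71 and 62 UMIs in 24 cells of each day. Its level in other epithelial cells was 0.140 and 0.262 CPM, from 2 and 4 UMIs, a ratio of 50.6 (20.3 to 639) on day 0 and 46.6 (17.3 to 176) on day 1. Upk3bl, an uroplakin-like gene, was at 199 and 149 CPM against 136 and 84.2 CPM. The 10 highest urothelium-like cells held 78.9% and 77.4% of Upk3b UMIs but 19.5% and 24.6% of those of Upk3bl. Mesenchyme-like cells had 10 or more collagen UMIs, no Epcam UMI and fewer than 2 Pax2 UMIs (15 and 38 cells). Mesonephric duct-like cells had 2 or more Pax2 UMIs (48 and 18 cells). Both groups were also limited to fewer than 5 uroplakin UMIs per cell, which capped their levels in advance. Mesenchyme-like cells had no UMI of the rule uroplakins, and the exact upper bounds are 24.8 and 12.7 CPM. Mesonephric duct-like cells had 9.76 and 16.7 CPM of the rule uroplakins summed, against 26.2 and 17.7 CPM in other epithelial cells. Urothelium-like cells had 477 and 885 CPM.

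To set shares beside each other at equal depth, each cell was thinned to 5000 UMIs, which left out 1 urothelium-like cell of day 0 and 1 and 15 other epithelial cells. A UMI of any rule uroplakin then remained in 76.7% of urothelium-like cells on day 0 (69.1 to 83.2) and 85.0% on day 1 (77.6 to 90.7), and in 10.7% and 6.55% of other epithelial cells. Mesonephric duct-like cells, also limited to fewer than 5 uroplakin UMIs, had a share of 6.25% (1.31 to 17.2) and 5.56% (0.141 to 27.3). Their median depths were 18719 and 20560 UMIs. The uroplakin limit fixed the order of the urothelium-like shares and those of both other groups. The shares of other epithelial cells lie within the intervals of the mesonephric duct-like cells. Upk1b, which the rule did not use, was in 67.3% and 65.4% of urothelium-like cells, in 26.6% and 23.1% of other epithelial cells, and in 0 of 48 and 0 of 18 mesonephric duct-like cells. A count of 0, taken to allow up to 3 cells, limits the share of cells with a UMI at this depth to 6.25% and 16.7%, and without thinning 3 and 2 of these cells had a Upk1b UMI. Basal keratin Krt5 together with a rule uroplakin was seen in 62.0% of urothelium-like cells on day 0 (53.7 to 69.8) and 48.0% on day 1 (39.1 to 57.1). Krt5 itself was in 84.0% (77.1 to 89.5) and 62.2% (53.2 to 70.7), while in other epithelial cells it was in 69.3% and 78.5%. Unthinned, Krt5 was in 94.7% and 77.2% of urothelium-like cells, whose depth also differed between the days. Krt20, the keratin of mature umbrella cells, was in 2.67% and 7.09% of thinned urothelium-like cells, and 10 cells held 87.5% and 88.9% of its UMIs.

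Basal and luminal keratins were present side by side. Krt15 was the most abundant of those listed, at 6846 and 5094 CPM in urothelium-like cells, and Krt5 stood at 764 CPM (743 to 785) and 626 CPM (604 to 648). Trp63, which encodes the basal regulator p63, was at 74.2 and 56.0 CPM, with 82.8 and 87.7 CPM in other epithelial cells. Of 13 basal genes 11 could be compared between the days, with at least 10 CPM on 1 of them. The line used throughout is a 2-fold ratio, which 1.98% of the 8069 genes compared passed as higher on day 1 and 1.43% as lower. Krt17, 1 of the 11 basal genes, passed it. It was at 741 CPM on day 0 and 363 CPM on day 1, 2.04 times lower (1.94 to 2.16). The median log2 ratio of day 1 over day 0 was -0.11 over the basal genes, beside -0.03 over all genes compared. Among 7 luminal and umbrella keratins 6 were compared, 2 were past the line and higher on day 1, and the median was 0.45. Krt4, a keratin of stratified mucosa, was at 218 and 497 CPM, and Krt20 at 3.58 and 12.4 CPM. Krt7, Krt8, Krt18 and Krt19 were 1.13 to 1.51 times higher on day 1.

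**Figure D2:**
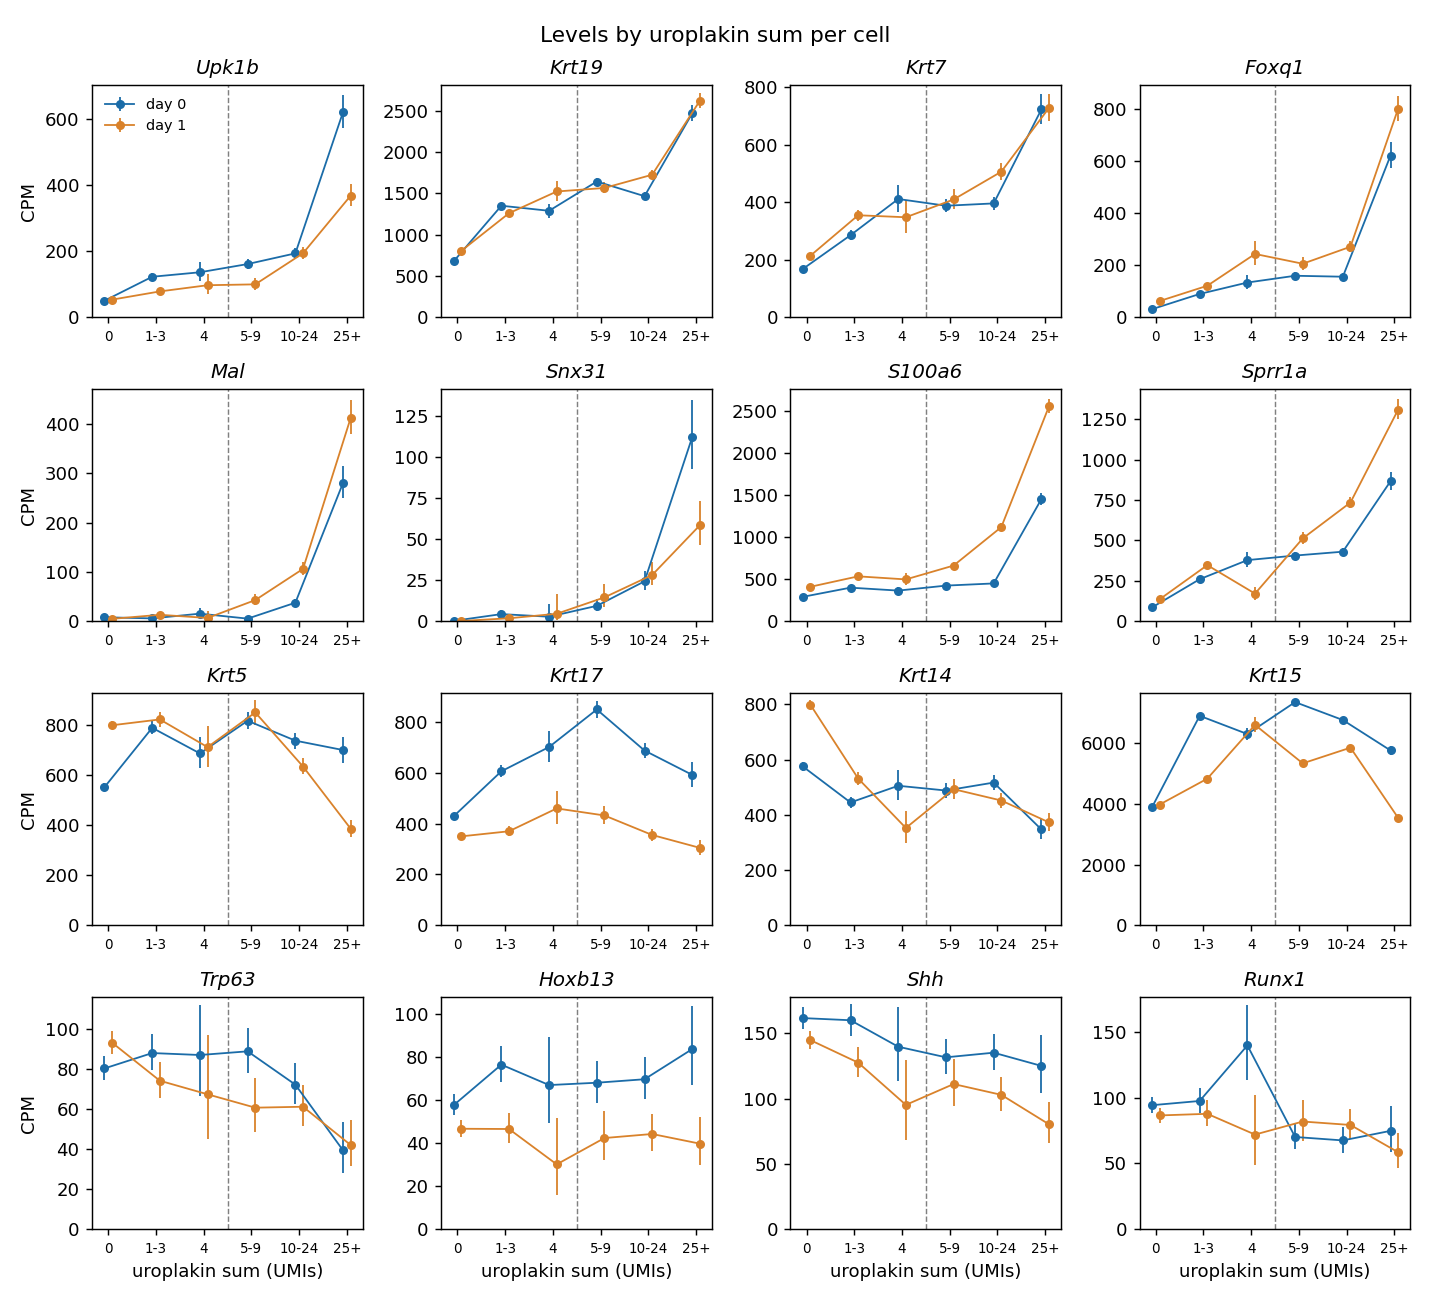
Levels in CPM (points with exact 95% intervals) of uroplakins, keratins and other named genes by uroplakin sum per cell in UMIs, for day 0 and day 1, with the rule's limit as a dashed line. Upk1b, Foxq1, Mal and S100a6 have their highest point in cells with 25 or more uroplakin UMIs on both days.

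Levels varied with the uroplakin sum within the urothelium-like cells, a description that the sum itself shapes. On day 1, from cells with sums of 5 to 9 through 10 to 24 to 25 or more, Krt5 was at 848, 633 and 385 CPM, and Krt15 at 5323, 5839 and 3531 CPM. Foxq1, a forkhead factor, was at 206, 271 and 802 CPM in the same order, Krt19 at 1565, 1725 and 2620 CPM, and Upk1b at 100, 194 and 369 CPM. S100a6, a calcium-binding protein, was at 663, 1120 and 2556 CPM. Psca and Krt4 were highest in the middle range, Psca at 698, 1311 and 820 CPM and Krt4 at 376, 664 and 323 CPM. The median depth of these 36, 54 and 37 cells was 27702, 32092 and 22989 UMIs, so the top range was not the deepest on day 1. On day 0 the 51 cells with sums of 10 to 24 were the deepest, with a median of 57486 UMIs, and Krt5 was at 815, 736 and 698 CPM over the 3 ranges. Psca was at 240, 183 and 763 CPM over these ranges of day 0, and Krt4 at 150, 287 and 216 CPM. Cells just outside and just inside the limit differed on day 0 in some genes more than in others. Sums of 4 had 134 CPM of Foxq1 and 411 CPM of Krt7, sums of 5 had 117 and 374 CPM, and sums of 0 had 31.4 and 168 CPM. Psca was at 17.1 CPM in sums of 4 and 249 CPM in sums of 5, and Nupr1 at 11.4 and 123 CPM. Sums of 1 to 3 on day 0 had 188 CPM of Psca and 38.3 CPM of Nupr1, so neither gene rose steadily toward the limit. On day 1 Psca was at 420 CPM in sums of 4 and 253 CPM in sums of 5, and Nupr1 at 2.32 and 207 CPM.

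The comparison of urothelium-like with other epithelial cells shares its cells with the rule, so it is a description. At least 2-fold higher were 134 of 8211 genes on day 0 (1.63%) and 184 of 8057 on day 1 (2.28%), and lower were 150 (1.83%) and 88 (1.09%). On both days 91 genes were higher and 34 lower, of 7792 compared on both. Without cells over 60000 UMIs the counts were 239 higher and 264 lower on day 0 and 365 and 195 on day 1.

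The uroplakins that define urothelium chose the cells, so the label was checked against 4 other markers that the study used for developing bladder urothelium. They were chosen on these samples and are no independent evidence of direction. Foxq1 was at 228 CPM on day 0 (217 to 240) and 393 CPM on day 1 (376 to 411) in urothelium-like cells and at 53.9 and 81.9 CPM in other epithelial cells. Krt7 was at 442 and 539 CPM against 215 and 252 CPM. Plaur, the urokinase receptor, was at 12.5 and 35.5 CPM against 4.33 and 9.69 CPM. Krt20 reached the 10 CPM needed for a comparison on day 1 only, at 12.4 against 3.14 CPM. So 3 of 3 compared markers were at least 2-fold higher in the urothelium-like cells on day 0 and 4 of 4 on day 1. The shares over all genes compared were 1.63% and 2.28%.

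Among genes of at least 50 CPM on both days, Mal and Psca had the largest mean ratios after Upk3a and Upk1a. Psca, a GPI-anchored surface protein, was at 295 CPM on day 0 (282 to 309) and 1017 CPM on day 1 (989 to 1045), 4.97 (4.58 to 5.39) and 15.3 (14.3 to 16.4) times its level in other epithelial cells. Mal, a raft protein of apical transport, was at 60.9 and 169 CPM, 7.59 (6.15 to 9.41) and 23.5 (19.3 to 28.9) times higher. Ly6d was 4.46 and 5.53 times higher, Krt4 was 4.23 and 7.96 times higher, and Nupr1, a stress-responsive chromatin protein, 3.32 and 3.24 times. Psca, Ly6d, Krt4 and Nupr1 are 4 of 6 genes of proximal luminal cells that the study named, in part on these samples, so they are no independent evidence of direction. Of the other genes of that list, Clu was at 12.8 and 20.1 CPM against 42.2 and 38.2 CPM. Several of these genes sat in few cells: the 10 highest held 70.0% and 48.4% of Psca UMIs, 61.7% and 74.2% of those of Ly6d, and 84.5% and 61.8% of those of Nupr1. With a uroplakin limit of 10 in place of 5 the day 0 log2 ratio of Nupr1 was -0.10. On day 1 Psca and Krt4 were lower in cells with 25 or more uroplakin UMIs than in those with 10 to 24. Lypd2, by contrast, was 2.43 and 3.39 times higher with 20.7% and 25.9% of its UMIs in the 10 highest cells.

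Among 8 genes of uroplakin vesicle traffic, Mal and Snx31, which encodes a sorting nexin that binds uroplakins, were the furthest apart between the groups. Snx31 was at 31.3 and 32.5 CPM in urothelium-like cells and 1.68 and 0.786 CPM in other epithelial cells, a ratio of 18.7 (12.2 to 29.9) and 41.4 (23.1 to 81.7). Of 7 genes compared on day 0 and 6 on day 1, 3 were at least 2-fold higher on each day and none was as much lower. Of all genes compared 1.63% and 2.28% were higher. The medians of the list were 0.90 and 0.98 (log2) beside -0.07 and -0.03 over all genes. Rab27b, a small GTPase of secretory vesicles, was at 76.7 and 79.8 CPM against 41.1 and 37.7 CPM.

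Factors known from urothelial differentiation were compared for 20 genes on day 0 and 19 on day 1. Past the line and higher were 4 on day 0 (Pparg, Grhl1, Elf5 and Foxq1) and 6 on day 1 (Pparg, Grhl3, Elf5, Foxq1, Tbx2 and Ovol1), while Tbx2 and Ovol2 were lower on day 0. Pparg, the nuclear receptor of urothelial differentiation, was at 14 and 20.1 CPM against 3.21 and 3.93 CPM, 4.37 (3.04 to 6.36) and 5.11 (3.68 to 7.16) times higher. With all cells kept, Gata3, Klf5, Ehf and Elf3 were higher by less than 2-fold on both days. Klf5 was at 457 and 381 CPM against 325 and 276 CPM. The list medians with all cells kept were 0.41 and 0.47. Without cells over 60000 UMIs, Grhl3 and Ovol1 were also higher past the line on day 0, at log2 ratios of 1.23 and 1.26. Gata3 was then nearly level on day 0, at 181 against 178 CPM. On day 1 Grhl1, Elf3 and Ehf were then also higher past the line, at 1.31, 1.35 and 1.01, and Foxa2 was lower, at -1.55. Of all genes compared 1.63% were higher and 1.83% lower on day 0, and 2.28% and 1.09% on day 1.

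The list of cornified envelope genes, which strengthen stratified epithelia, and S100 genes had 17 members, of which 8 were compared on each day. At least 2-fold higher were 4 on day 0 and 5 on day 1, beside 1.63% and 2.28% of all genes compared. Sprr1a was at 487 and 826 CPM, 3.19 (3.02 to 3.37) and 4.39 (4.18 to 4.60) times its level in other epithelial cells. S100a14 and Anxa1 were 2.65 and 2.29 times higher on day 0 and 2.86 and 2.44 times on day 1. Rhov, a small GTPase, Asprv1, a skin protease, Gstm1, a glutathione transferase, and Smagp, an adhesion-associated membrane protein, were also among the 15 genes with the largest mean ratio over both days and at least 50 CPM, with folds of 2.67 to 4.70 on day 0 and 2.90 to 5.36 on day 1.

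Genes of the prostate and the urogenital sinus were detected in the urothelium-like cells as well. Hoxb13, a posterior HOX factor, was at 71.1 and 42.6 CPM against 63.7 and 46.2 CPM in other epithelial cells. Shh, the hedgehog ligand of the sinus epithelium, was at 132 and 99.1 CPM against 160 and 139 CPM. Of 16 regulators 12 were compared, and lower past the line were Hoxd12 on day 0 and Hoxd12 and Bmp7 on day 1, with none higher. Over all genes 1.83% were lower and 1.63% higher on day 0, and 1.09% and 2.28% on day 1. Hoxd11, Hoxd13, Foxa2 and Sox9 were also lower past the line on day 1 when cells over 60000 UMIs were left out. Their log2 ratios were then -1.06, -1.28, -1.55 and -1.08. On day 0 Hoxd12 was then no longer past the line, at -0.84. Hoxb13 was at 78.4 against 63.6 CPM on day 0 and 26.8 against 46.6 CPM on day 1 without these cells. Runx1, the factor the study followed, was at 69.7 CPM (63.5 to 76.3) and 74.5 CPM (67.2 to 82.4), below the 97.4 and 86.3 CPM of other epithelial cells on day 0 by 1.40 times (1.26 to 1.55). By days 3 and 6 cells chosen by the same limits had 46.4 and 34.7 CPM of Shh and 18.9 and 11.1 CPM of Sox2. Other epithelial cells of those days had 80.9 and 48.0 CPM of Shh, also below their days 0 and 1, and 55.9 and 60.4 CPM of Sox2.

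Of 12 WNT genes compared on day 0, 1 was higher and 4 were lower past the line, and of 10 on day 1 there was 1 of each, with medians of -0.30 and -0.40. Over all genes 1.63% were higher and 1.83% lower on day 0, and 2.28% and 1.09% on day 1. Wnt4, a ligand, was at 501 CPM on day 0 (484 to 518) and 454 CPM on day 1 (435 to 472), 2.03 (1.93 to 2.13) and 2.07 (1.96 to 2.18) times higher than in other epithelial cells. Lef1, a nuclear effector of the pathway, was at 4.18 and 2.36 CPM against 17.2 and 12.1 CPM, 4.11 (2.77 to 6.31) and 5.10 (2.85 to 10.0) times lower. On day 0 Axin2 and Sp5, 2 WNT target genes, and the ligand Wnt7a were also lower past the line. Sp5 had 5 UMIs there, 0.746 CPM against 11.4, a level 15.2 times lower (6.40 to 47.6).

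Genes at least 2-fold lower in urothelium-like cells on both days, with at least 50 CPM in 1 of the groups each day, were 4. C1qtnf12, a secreted C1q-family protein, was at 9.40 and 16.2 CPM against 70.2 and 53.8 CPM, 7.46 (5.78 to 9.78) and 3.33 (2.65 to 4.23) times lower. Meg3, a long noncoding RNA, was at 63.6 and 69.2 CPM against 137 and 247 CPM. Col4a1, a basement membrane collagen, was at 38.1 and 35.9 CPM against 93.7 and 94.3 CPM, and Tubb2b, a tubulin, at 42.7 and 29.2 CPM against 92.0 and 64.8 CPM. Aldh1a3, a retinoic acid synthase, was at 2.39 and 2.36 CPM against 73.2 and 10.8 CPM. Mesonephric duct-like cells had 381 and 157 CPM of Aldh1a3. Of 7 duct markers, 6 were compared on day 0 and 5 on day 1. Hoxb7, Pax8, Sox17 and Lhx1 were at least 2-fold lower in urothelium-like than in other epithelial cells on day 0, and Pax8 and Sox17 on day 1, with none as much higher and medians of -2.29 and 0.18. Over all genes 1.83% were as much lower on day 0 and 1.09% on day 1. Above 0 were Gata3 on day 0 and Wfdc2, Hoxb7 and Gata3 on day 1, when Wfdc2 was at 647 against 543 CPM. How much such cells add to the Aldh1a3 level of the comparison group was not tested.

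**Figure D3:**
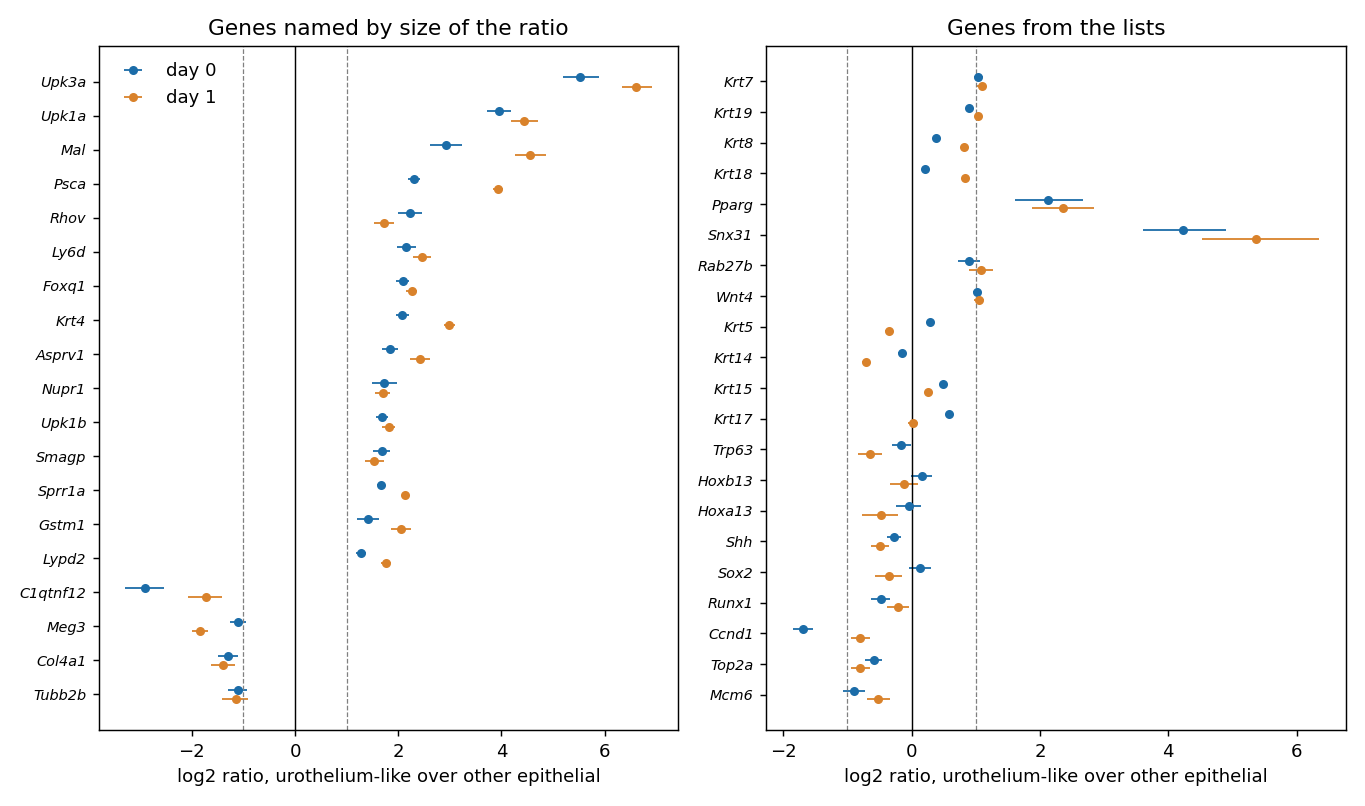
Log2 ratio of CPM in urothelium-like over other epithelial cells, with exact 95% counting intervals, on day 0 and day 1 (colours), for genes named by size of the ratio (left) and genes of the lists (right). Genes of the left panel were chosen by their ratios on both days, which fixes their side of 0. In the right panel Snx31 and Pparg lie above 1 and Ccnd1 below 0 on both days.

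With all cells kept, few proliferation genes passed the line between urothelium-like and other epithelial cells, and most had a log2 ratio below 0. Of 12 S phase genes, 12 were below 0 on day 0 and 10 on day 1, and of 12 G2/M genes 12 on each day. Of the S phase genes, Mcm2 and Mcm5, subunits of the replicative helicase, were past the line on day 0 and none on day 1, with medians of -0.70 and -0.36. No G2/M gene was past the line, with medians of -0.48 and -0.41. With all cells kept, Top2a, a topoisomerase of dividing cells, was at 89.9 and 83.3 CPM against 135 and 145 CPM. At equal depth it was seen in 21.3% and 17.3% of urothelium-like and 21.7% and 23.8% of other epithelial cells. Ccnd1, cyclin D1, was at 56.3 and 92.6 CPM against 182 and 161 CPM, 3.24 (2.91 to 3.62) and 1.74 (1.57 to 1.92) times lower. Among 12 and 14 EGF and FGF genes compared, Etv4 and Spry4, which report FGF signalling, were lower on both days and the EGF receptor ligand Areg was higher, at 86.6 and 129 CPM against 30.8 and 51.5 CPM. Spry1 was also lower on day 0, and the EGF receptor ligands Hbegf and Btc were higher on day 1, Hbegf at 369 against 176 CPM. Of the junction and adhesion genes, Cldn4, a claudin of tight epithelia, and Tjp3 passed the line on day 1, with 446 against 216 CPM of Cldn4.

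Most markers of other cells were low. Summed endothelial markers stood at 2.54 and 1.18 CPM in urothelium-like cells, haematopoietic markers at 1.19 and 0.985 CPM, neural and neuroendocrine markers at 4.33 and 9.85 CPM, hindgut markers at 1.34 and 1.97 CPM, and erythroid markers at 0.448 and 0.197 CPM. Other epithelial cells had 130 CPM of erythroid markers on day 0 and 0.327 CPM on day 1. The 7 mesenchyme markers summed to 198 and 109 CPM, with 5 of 7 under 10 CPM on each day, and Dcn, the main one, was at 159 and 81.0 CPM against 151 and 126 CPM in other epithelial cells. The study also named Dcn among basal markers of the cultured epithelium, and 93 and 57 urothelium-like cells had a Dcn UMI. Smooth muscle markers were at 19.6 and 51.0 CPM, against 21.7 and 35.4 CPM, and 1 cell held 72.3% and 91.1% of the Acta2 UMIs of its day. Mesonephric markers summed to 555 and 844 CPM, of which Wfdc2 was 333 and 647 and Gata3, which urothelium also uses, 205 and 162. Their part in the results was not tested.

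Between day 0 and day 1, 160 of 8069 genes were at least 2-fold higher in urothelium-like cells (1.98%) and 115 at least 2-fold lower (1.43%). In other epithelial cells 123 of 8128 (1.51%) and 108 (1.33%) passed. The days of both groups came from the same 2 pools. Of the 160 genes 115 were compared in other epithelial cells and 64 of those were also past the line there. Of the 115 lower genes 92 were compared and 43 were past it. Without cells over 60000 UMIs the counts in urothelium-like cells were 243 and 181.

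Several genes with the largest day ratios passed the line in other epithelial cells too. Ero1l, an oxidase of the endoplasmic reticulum, was at 32.4 and 166 CPM on days 0 and 1, 5.13 times higher (4.42 to 5.99), and at 32.8 and 238 CPM in other epithelial cells. Adm, Ndrg1, Ndufa4l2 and Klf2 were 3.71, 3.62, 3.13 and 3.22 times higher in urothelium-like cells. Of 13 hypoxia and glycolysis genes compared, 5 passed the line in urothelium-like cells and 9 in other epithelial cells, with medians of 0.93 and 1.45, and the difference between the groups was not tested. Over all genes 1.98% were higher past the line in urothelium-like cells and 1.51% in other epithelial cells. Of 14 cholesterol synthesis genes 2, Fdps and Msmo1, passed, with a median of 0.67, and 1 passed in other epithelial cells with the same median. Ftl1-ps1, a ferritin pseudogene whose reads cannot be told from those of Ftl1 with certainty, was at 17.5 and 478 CPM, and at 22.8 and 508 CPM in other epithelial cells.

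Other genes had a higher ratio in the urothelium-like cells than in the rest, side by side and untested. Psca was 3.44 times higher on day 1 (3.27 to 3.63) in urothelium-like cells, and went from 59.5 to 66.4 CPM in other epithelial cells. Mal was 2.78 times higher (2.47 to 3.14), with 8.03 and 7.20 CPM in the rest, and S100a6 2.32 times (2.23 to 2.41), with 328 and 444 CPM in the rest. Reg3g, an antimicrobial lectin, was at 4.63 and 59.1 CPM, with 2.79 and 14.9 CPM in the rest, but its 10 highest cells held 80.6% and 83.7% of its UMIs. Fgfbp1, an FGF carrier, was 3.70 times higher (3.22 to 4.26) and 2.51 times (2.26 to 2.80) in the rest. Isg20, an exonuclease, and H2-K1, an MHC class I gene, had intervals that overlapped between the groups. Isg20 was 3.24 times higher (2.69 to 3.93) and 3.06 times (2.48 to 3.80) in the rest, and H2-K1 3.00 times (2.53 to 3.59) and 2.71 times (2.44 to 3.00).

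**Figure D4:**
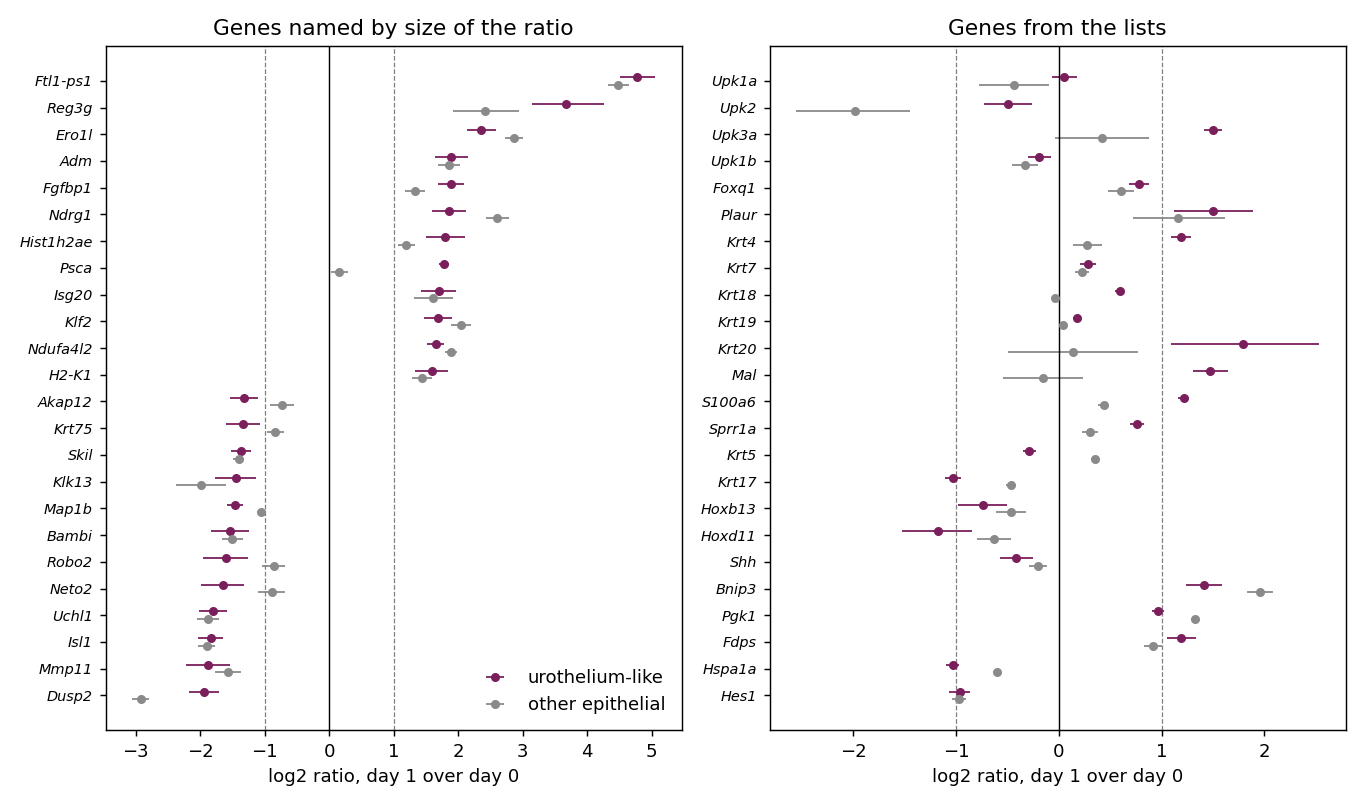
Log2 ratio of CPM on day 1 over day 0, with exact 95% counting intervals, in urothelium-like and other epithelial cells (colours), for genes named by size of the ratio (left) and genes of the lists (right). Ero1l and Isl1 lie far from 0 in both groups, and Upk3a, Psca and Mal lie above 1 in urothelium-like cells.

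Of the genes lower on day 1, Isl1, a LIM homeodomain factor, was at 187 and 52.6 CPM, 3.56 times lower (3.12 to 4.08), and at 150 and 40.3 CPM in other epithelial cells. Dusp2, a phosphatase induced early by stimuli, was 3.83 times lower, Uchl1, a ubiquitin hydrolase, 3.49 times, Mmp11, a matrix protease, 3.67 times, Map1b, a microtubule protein, 2.76 times, and the TGF-beta regulators Bambi and Skil 2.89 and 2.57 times. Klk13, a kallikrein, was at 59.1 and 21.7 CPM, against 18.9 and 4.78 CPM in other epithelial cells. Hspa1a, an inducible heat shock protein, was at 1047 and 511 CPM and Hsph1 was also past the line. HOX and sinus regulators had a median of -0.60 over 11 genes compared in urothelium-like cells, with Hoxd11 and Foxa2 past the line, and -0.29 over 12 in other epithelial cells. Over all genes 1.43% were lower past the line in urothelium-like cells and 1.33% in other epithelial cells. Hoxd11, a posterior HOX factor, was at 43.7 and 19.3 CPM, 2.27 times lower (1.80 to 2.88), and at 50.7 and 32.8 CPM in other epithelial cells. Hoxb13 was 1.67 times lower (1.42 to 1.97), and without cells over 60000 UMIs it stood at 78.4 and 26.8 CPM.

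Pathway lists had 0 to 3 genes past the line between the days, where 1.98% of all genes compared were higher and 1.43% lower. No Notch gene of 7 compared passed the line, and of 9 WNT genes Wnt10a alone did, at 48.1 and 22.9 CPM. Ihh, 1 of 5 hedgehog genes and a ligand, also did, at 13.3 and 5.91 CPM. Of 14 junction and adhesion genes, Cldn3 and Tjp3 were higher, with 78.1 and 163 CPM of Cldn3 in urothelium-like cells and 105 and 86.1 CPM in other epithelial cells. Of 11 retinoid genes, Aldh1a1, a retinoic acid synthase, and Stra6, a retinol transporter, were higher, and Rdh10, a retinol dehydrogenase, was lower, at 13.0 and 4.93 CPM. Stra6 rested on 34 and 53 UMIs, and its log2 ratio turned to -0.34 when cells were thinned to 5000 UMIs. Tbx2, a T-box factor, was at 4.18 and 15.6 CPM, while it was at 11.5 and 4.13 CPM in other epithelial cells, and the difference between the groups was not tested. Of 13 EGF and FGF genes, Etv4 and Etv5, which report FGF signalling, were higher. Etv4 was at 11.2 and 39.2 CPM in urothelium-like cells and at 32.8 and 93.5 CPM in other epithelial cells. Etv5 was 8.52 times higher (4.49 to 17.8), from 11 and 71 UMIs, and 2.22 times higher in other epithelial cells. Of 12 BMP and TGF-beta genes, the ligand Tgfb1 was 4.01 times higher (2.52 to 6.58), from 25 and 76 UMIs, and 2.24 times higher in other epithelial cells. Of 12 immediate early genes Fosb passed, at 121 and 322 CPM, and it was at 159 and 388 CPM in other epithelial cells.

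Cells chosen by the same limits later in culture are given for the course of the members' genes. They were 93 of 1086 cells on day 3 (8.56%, 6.97 to 10.4) and 112 of 2568 on day 6 (4.36%, 3.60 to 5.22), with median depths of 18925 and 15679 UMIs. Foxq1 was at 717 and 1369 CPM there, Krt19 at 3588 and 3846 CPM, S100a6 at 3774 and 5050 CPM and Pparg at 41.7 and 59.4 CPM, all above the levels of days 0 and 1. Krt17 was at 135 and 118 CPM and Hoxb13 at 27.5 and 23.1 CPM, below them. Psca was highest on day 3, at 2754 CPM, with 1060 CPM on day 6. Genes at least 2-fold apart from other epithelial cells were 14.3% of those compared on day 3 and 15% on day 6, against 3.46% and 3.38% on days 0 and 1. Depth, cell number and the days' pools differ as well, so this spread between the days was not tested.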

How the data were processed

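The authors aligned the reads with Cell Ranger 3.1.0 to mm10 (GRCm38) and deposited raw UMI counts per gene and cell for 4 libraries, of which the explant library (7474 cells, 121090404 UMIs, 31053 genes) was used here, with the deposited barcode counts and the population name of each barcode. Seurat 3.1.5 is also named in the submitters' processing notes. The authors' own comparison tables were not used, and the adult libraries were used for counts of cells only. Counts were summed per group and day and given as CPM. Ratios carry exact conditional binomial, levels exact Poisson and shares Clopper-Pearson intervals (Python 3.11.15, numpy 2.4.6, scipy 1.17.1, pandas 2.3.3, matplotlib 3.10.9). A gene was compared at 10 CPM in 1 group, 2-fold was the line, and 3 UMIs the floor. Named were the 12 genes with the largest and the 12 with the smallest day ratio at 50 CPM, up to 15 higher and 10 lower in urothelium-like cells on both days, and any of 337 genes in 38 lists, leaving out sex-linked, Gm, Rik and mitochondrial genes. Members and lists were chosen with earlier results of these data known. Doublets were kept in the values given, and removing the top 6% of Scrublet scores (scanpy 1.11.5) was an alternative, as were other limits, scalings and thinning to 5000 UMIs (seed 1). Leaving out cells over 60000 UMIs was chosen after seeing the data. The calculations were tested on simulated data. In all, 16 barcodes of the explant library also occurred in adult libraries, 1 of them in an urothelium-like cell. Results on some listed genes are not reported here.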

Additional observations from a re-analysis of the deposited data

Results flagged for a closer look

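The genes Egr4, Tbx2 and Hoxb8 had opposite directions from day 0 to day 1 in the urothelium-like and the other epithelial cells, and the difference was not tested because each day is 1 pool. The log2 ratio of Egr4, an immediate early factor, was 2.09 in urothelium-like cells and -1.05 in other epithelial cells. That of Tbx2 was 1.90 and -1.48, and that of Hoxb8 was 1.76 and -1.46. The levels were low: Egr4 stood at 4.78 and 20.3 CPM in urothelium-like cells, Tbx2 at 4.18 and 15.6 CPM and Hoxb8 at 4.48 and 15.2 CPM. Egr4 and Hoxb8 were named after their values were seen.

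The adult prostate libraries, which enter no comparison here, also held cells with 5 or more uroplakin UMIs and fewer than 2 of Pax2. They were 121 of 1807 cells (6.70%) in adult intact and castrated prostate replicate 1, 434 of 4108 cells (10.6%) in replicate 2 of that kind, and 151 of 2159 cells (6.99%) in adult intact prostate replicate 3. Adult cells were not compared with the explant cells.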

How the results depend on the processing

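No paired analysis was possible because each day is 1 pool in 1 library, and no library could be left out for the same reason. Counting error is small for genes over 50 CPM, and neither the spread between pools nor that between litters can be seen. With a uroplakin minimum of 10 there were 75 cells on day 0. Leaving out cells over 60000 UMIs gave 243 higher and 181 lower genes between the days, 239 and 264 against other epithelial cells on day 0, and 365 and 195 on day 1. A mean of per-cell CPM gave 206 lower genes between the days, 239 higher and 234 lower on day 0, and 369 and 233 on day 1. Thinning to 5000 UMIs gave 540 and 645, 360 and 486, and 536 and 495. A minimum of 50 CPM gave 42 and 26, 37 and 19, and 47 and 9, and no minimum gave 711 and 622, 660 and 820, and 1042 and 586, since fewer or more genes were compared. The study's barcode thresholds gave 134 lower genes on day 1 and all other cells of the day as comparator 162. Of 2866 alternative values of 172 named ratios, 2694 kept direction and side of the 2-fold line, 166 kept the direction only, and 6 reversed. Of the 172 ratios, 90 lost the 2-fold line under at least 1 alternative. The day ratio of Acta2 was -1.88 (log2) at a uroplakin minimum of 10 and -1.68 without cells of 10 or more collagen UMIs, and that of Stra6 was -0.34 when thinned. Against other epithelial cells on day 0, Nupr1 was -0.10 at a uroplakin minimum of 10. Hba-a1 and Hbb-bs were each 0.97 without the top 6% of doublet scores. Both genes were then at the floor of 3 UMIs in both groups. Their shared value reflects only the total UMIs of the groups and shows no higher level. The cause of the other shifts was not tested. Of 20 values of shares of cells, taken without thinning or with thinning to 10000 UMIs, 18 moved beyond their interval.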
